A study of Mus musculus with 36 samples.

Results

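Immediate early genes are the genes a cell transcribes within minutes of a stimulus, without needing new protein first. The 10 followed here were Fos, Fosb, Jun, Junb, Egr1, Egr2, Ier2, Atf3, Dusp1 and Nr4a1, in RNA from 36 whole mouse spleens. They were chosen by name, and every probe set that names only 1 of them was taken. That gave 12 probe sets of the 45101 on the array and 10 of its 18193 named genes. Jun and Egr2 have 2 probe sets each. A gene is represented by its brighter probe set, and its level is given as log2(intensity + 16), which understates the change of dim genes. Of the 10 genes, 9 were bright enough to be tested, among 27022 tested probe sets. Fosb, with a mean level of 5.67, lay under the limit of 6.49.

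The mice were 4 months old and came from an F2 cross. An array was made for each spleen, from 18 mice with arthritis and 18 without. The series title calls the arthritic animals deficient for the interleukin 1 receptor antagonist, an inhibitor of interleukin 1 signalling. The labels give no genotype, sex, disease score or stimulus for a mouse, and no time between death and RNA extraction.

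In lymphocytes and macrophages, engaged antigen or cytokine receptors activate kinase cascades that reach factors already bound to immediate early promoters, such as Srf with its Elk partners and Creb1. The first products include Fos and Jun proteins, which pair to form the AP-1 transcription factor, and zinc finger factors of the Egr family. Dusp1 is among the brakes, a phosphatase that inactivates mitogen-activated protein kinases. These transcripts are known to move quickly with handling of an animal or tissue.

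The upstream windows of Dusp1, Fos and Jun are shown, picked with the correlations below known. Over the 36 mice, Pearson r with Dusp1 was 0.69 for Fos and 0.105 for Jun (adjusted permutation p = 0.00045 and 0.679). The difference between these values was not tested. Each line gives the 250 bases before the RefSeq transcript start in GRCm38.p6, 5′ to 3′ on the strand of the gene. Fos lies at chr12:85473640-85473889 on the plus strand, Dusp1 at chr17:26508473-26508722 on the minus strand, and Jun at chr4:95052223-95052472 on the minus strand. Capitals mark TGACG or its reverse complement CGTCA, the core of the cyclic AMP response element (CRE) to which Creb1 and Atf family proteins bind.
Fos: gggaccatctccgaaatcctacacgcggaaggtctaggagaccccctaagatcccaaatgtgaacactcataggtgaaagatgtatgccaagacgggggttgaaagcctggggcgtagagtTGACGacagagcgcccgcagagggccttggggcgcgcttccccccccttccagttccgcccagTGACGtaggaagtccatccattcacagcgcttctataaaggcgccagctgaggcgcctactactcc
Dusp1: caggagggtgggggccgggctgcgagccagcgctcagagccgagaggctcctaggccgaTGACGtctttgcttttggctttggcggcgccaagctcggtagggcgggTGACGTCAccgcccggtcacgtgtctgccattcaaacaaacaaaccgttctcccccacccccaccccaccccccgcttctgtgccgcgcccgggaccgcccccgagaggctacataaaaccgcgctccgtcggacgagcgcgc
Jun: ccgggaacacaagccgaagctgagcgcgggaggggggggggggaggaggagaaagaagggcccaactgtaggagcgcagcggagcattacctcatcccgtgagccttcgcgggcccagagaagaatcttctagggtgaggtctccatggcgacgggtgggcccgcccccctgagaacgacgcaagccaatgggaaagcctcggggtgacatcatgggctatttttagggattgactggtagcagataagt

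The letters TGACG, on either strand, were in 6 of the 8 members with a window (Fos, Fosb, Junb, Atf3, Dusp1 and Nr4a1, but not Jun or Egr2), against 17.8% of 32851 windows of that length. Egr1 and Ier2 had no window, and bases more than 250 before a start were not searched. The transcript starts used for Nr4a1 and Egr2 lay 12944 and 1030 bases from the annotated gene start. The Dusp1 window holds the full palindrome TGACGTCA, which contains TGACG on both strands and was in 1.55% of all windows. The Fos window holds TATAAA on the sense strand, 33 bases before the start, a match found in 7.59% of windows. The AP-1 letters TGANTCA on either strand were in 0 of the 8 windows, against 6.75% of all. The CArG box, to which Srf binds, was also in 0 of the 8, against 1.47%. These are exact matches of letters in a short window and carry no measurement of binding. Near matches were not counted, such as TGACATCA in the Jun window, which is a single letter away from TGACGTCA. The other members with TGACG correlated with Dusp1 at r = -0.0011 (Fosb), -0.17 (Junb), 0.09 (Atf3) and 0.06 (Nr4a1). Whether the letters go with correlation was not tested.

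All 36 arrays had been scaled to the same mean, and their probe set values correlated pairwise at 0.886 to 0.974. The added hybridisation controls, which hold no mouse gene, split the arrays into 3 clusters, called spike-in batches here. Batch A held 13 arrays, namely arthritic 1 to 9 and non-arthritic 1, 2, 5 and 6. Batch B held 16 and batch C held 7, with both groups in each. The ratio of Gapdh 3′ to 5′ signal, a gauge of transcript integrity and labelling, was 0.751 ± 0.059 (SD, n = 13) in batch A, 1.004 ± 0.091 (SD, n = 16) in B and 0.911 ± 0.061 (SD, n = 7) in C. The spleen transcription factors Tlx1 and Nkx2-5 had summed intensities of 628.3 to 1437, and 4 B cell markers summed to 23850 to 49430. Arthritic 8 and non-arthritic 5 and 6 also carried pancreas transcripts.

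Of the AP-1 family, Fos ranged more widely across mice than Jun and Junb. Fos, the partner of Jun proteins in AP-1, ran from 7.40 in non-arthritic 3 to 9.76 in non-arthritic 2, with a median of 8.51 (n = 36), a 5.14-fold range. Jun ran from 8.67 to 10.24 with a median of 9.31, and Junb, a Jun family member with its own targets in lymphocytes, from 9.26 to 10.75 with a median of 9.88. The weak Fosb signal ran from 4.45 to 6.81. Atf3, a stress-induced factor that pairs with Jun proteins, ran from 5.33 in non-arthritic 13 to 8.28 in non-arthritic 5. The Atf3 value of non-arthritic 13 stood by itself: the next lowest was 6.26.

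Egr1, a zinc finger factor, ran from 9.25 in arthritic 5 to 11.24 in arthritic 12, a 3.97-fold range, and its relative Egr2, which is known in T cells as a brake on activation, from 6.97 to 8.25. The second Egr2 probe set ran more widely, from 5.89 to 8.80. The nuclear protein Ier2 and the orphan nuclear receptor Nr4a1, an early marker of antigen receptor signalling, were the steadiest members, with ranges of 1.77-fold and 1.76-fold. Dusp1, with a mean of 11.06, ran from 10.33 in arthritic 18 to 12.19 in arthritic 5, a 3.64-fold range. The median SD of the 9 tested members was 0.374, close to the 0.361 of all tested probe sets, so as a set they did not stand apart in spread.

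**Figure D1:**
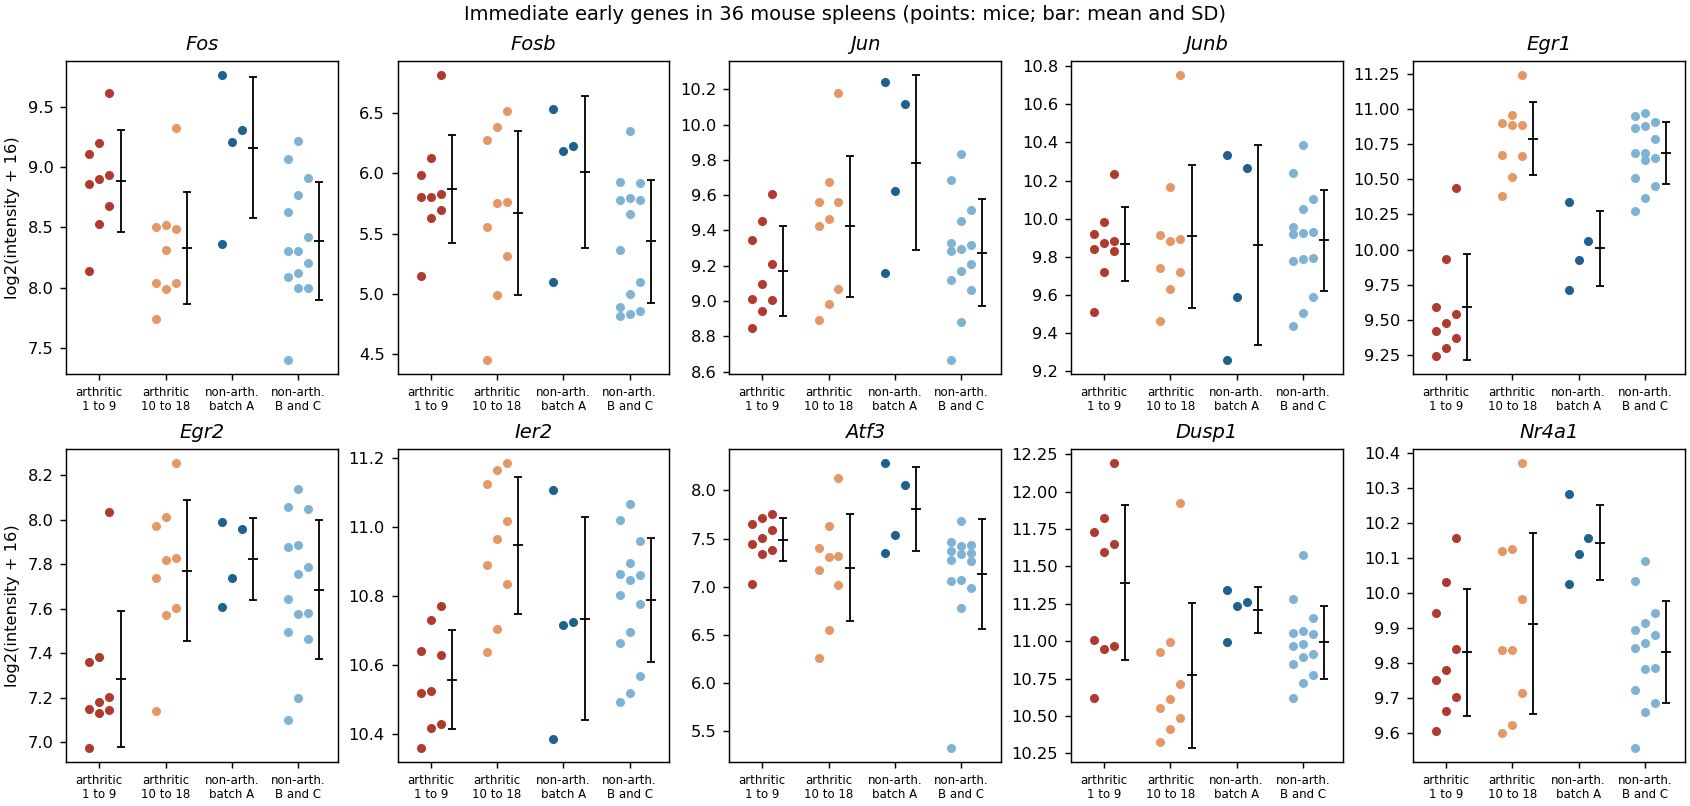
Levels of the 10 genes as log2(intensity + 16) on the vertical axis, 1 point per mouse, with the mean and SD of each set as a black bar. Arthritic 1 to 9 and non-arthritic batch A sit low for Egr1. For Fos their medians, 8.90 and 9.26, lie above the 8.51 of all mice, but the sets overlap with the others. Arthritic 1 (8.135) and non-arthritic 6 (8.36) lie under that overall median.

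The members did not all vary together. Over the 36 mice the median correlation of the 45 pairs was 0.11, and 9 pairs passed a two-sided permutation test with 100000 resamples after Benjamini-Hochberg adjustment over the pairs, 5 positive and 4 negative. Among all pairs of tested genes, 9.27% correlated at least as strongly as the weakest of the 9, with r of 0.467 or more in size. Genes measured on shared arrays share the effects of those arrays, so this background is the reference for the count.

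The strongest pair was Fos with Dusp1, with Pearson r = 0.69 (adjusted permutation p = 0.00045) and Spearman rho = 0.70 (adjusted permutation p = 0.00045). Both raw values were 1e-05, the smallest that the resamples can give. The pair correlated at 0.59 within batch A, at 0.51 within batch B, at 0.91 within batch C, and at 0.62 after centring within batch and group (adjusted permutation p = 0.0027). Without the 2 mice farthest from the median of Fos it was 0.71. Spleens high in Fos transcript were thus high in the transcript of the phosphatase Dusp1.

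Egr1 went the other way from Dusp1, with r = -0.65 (adjusted permutation p = 0.00045) and rho = -0.67 (adjusted permutation p = 0.000675). The negative sign held in every batch, with -0.58 for batch A, -0.65 for batch B and -0.50 for batch C, at -0.57 after centring (adjusted permutation p = 0.00608), and at -0.54 without the 2 farthest mice. Egr1 and Egr2 rose and fell together at r = 0.61 (adjusted permutation p = 0.0021) and rho = 0.54 (adjusted permutation p = 0.00648). After centring, r was 0.52 (adjusted permutation p = 0.0215). This pair was uneven by batch, with r at 0.83 for batch A, 0.25 for batch B and 0.67 for batch C. Arthritic 1, a batch A array, had the highest level of arthritic 1 to 9 in both genes (Egr1 10.44, Egr2 8.04). Its weight in the correlation of Egr1 with Egr2 was not tested. By group, r was 0.82 over the 18 arthritic and -0.04 over the 18 non-arthritic spleens, a difference that was not tested.

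The other 6 called pairs did not pass after centring. The background share of all gene pairs holds for uncentred values only, and none was computed for centred ones. The permutations of centred values made no allowance for the means removed, so their p can be too small. Fos with Egr1 was -0.53 over all mice but -0.05 in batch A and -0.25 after centring (adjusted permutation p = 0.389). Egr1 with Ier2 was 0.54 over all mice and 0.14 after centring (adjusted permutation p = 0.698). Jun with Nr4a1 was 0.54 and 0.44 (adjusted permutation p = 0.0669), Egr2 with Ier2 0.50 and 0.32, Egr2 with Dusp1 -0.57 and -0.45, and Ier2 with Dusp1 -0.47 and -0.27. For Jun with Nr4a1 the values within batches A, B and C were 0.60, 0.35 and 0.70, and for Egr2 with Dusp1 -0.55, -0.53 and -0.21, so these kept their sign.

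**Figure D2:**
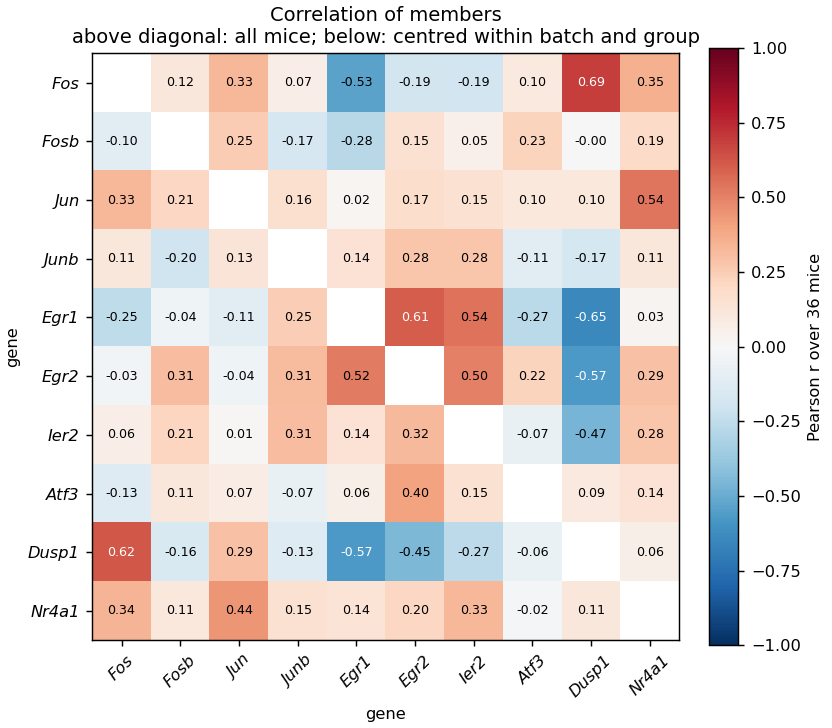
Pearson r between members over 36 mice on a colour scale from -1 to 1, with values over all mice above the diagonal and values centred within batch and group below it. Fos with Dusp1 is positive on both sides of the diagonal, at 0.69 and 0.62, and Egr1 with Dusp1 negative in both, at -0.65 and -0.57.

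**Figure D3:**
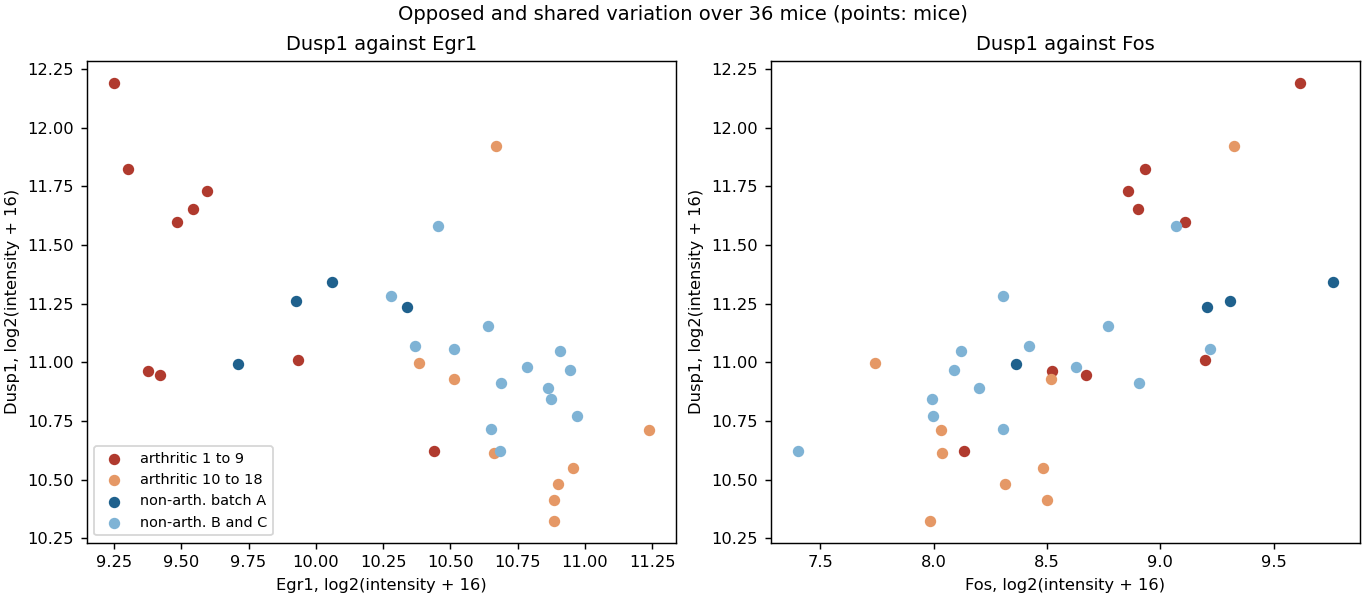
Dusp1 level on the vertical axis against Egr1 (left) and Fos (right), all as log2(intensity + 16), 1 point per mouse, coloured by set. Dusp1 falls as Egr1 rises (r = -0.65) and rises with Fos (r = 0.69).

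Arthritic spleens were compared with non-arthritic ones to ask whether disease went with these transcripts. None of the 9 tested members differed at an adjusted p under 0.05 by limma (0 of 9, where 0.0481% of all tested probe sets were called). At an unadjusted p under 0.05 the count was also 0 of 9, where 15.7% of tested probe sets passed. The Wilcoxon rank-sum test also called 0. Egr1 had the widest gap. Its level ran from 9.25 through a median of 10.41 to 11.24 in the 18 arthritic mice and from 9.71 through 10.64 to 10.97 in the 18 non-arthritic mice, so the groups overlapped. The difference was -0.35 (SE 0.17, limma adjusted p = 0.325).

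Taken batch by batch the Egr1 difference was -0.42 (A), 0.12 (B) and 0.05 (C), and it was -0.07 (SE 0.10, limma adjusted p = 0.808) with the batch as a block. Egr2 differed by -0.19 (SE 0.12), Jun by -0.09 (SE 0.12), and Fos by 0.05 (SE 0.18), all without passing. The second Egr2 probe set pointed the other way, with means of 7.31 in arthritic and 7.18 in non-arthritic mice. Dusp1 differed by 0.04 (SE 0.14) over all mice. Batch B alone gave -0.43 for Dusp1 (SE 0.12, limma adjusted p = 0.0664), while A gave 0.18 and C gave 0.19. Of the 41 tested members of a list of further immediate early genes, 0 passed. The SD of Egr1 was 0.69 with arthritis and 0.37 without, and that of Dusp1 was 0.58 and 0.24. Batch A held 9 arthritic and 4 non-arthritic arrays. Within batches A, B and C the SD of Egr1 was 0.38, 0.22 and 0.38 with arthritis and 0.26, 0.18 and 0.32 without. That of Dusp1 was 0.52 and 0.15 in A and 0.23 and 0.26 in B. In C it was 0.65 over the 3 arthritic mice, where arthritic 11 was highest at 11.92. These spreads were not tested.

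Arthritic 1 to 9 were then set against the other 27 mice. Egr1, Egr2 and Ier2 were lower in these 9 spleens and Dusp1 was higher, 4 of 9 members (3 lower and 1 higher). This division moved much of the array: 30.8% of tested probe sets were called, 16% higher and 14.8% lower. The members' count is read against that share.

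Egr1 was 9.25, 9.30, 9.38, 9.42, 9.48, 9.54, 9.60, 9.94 and 10.44 in arthritic 5, 4, 7, 6, 8, 2, 3, 9 and 1. In the other 27 mice it ran from 9.71 through a median of 10.67 to 11.24. Of the 9 mice, 7 lay under all 27, and only arthritic 9 and 1 reached into their range. The difference was -1.03 (SE 0.13, limma adjusted p = 2.59e-06), 2.04-fold lower, with 0.0444% of tested probe sets having a larger moderated t and 1.17% a larger difference.

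Egr2 ran from 6.97 through a median of 7.18 to 8.04 in the 9 mice and from 7.10 through 7.76 to 8.25 in the others. It was lower by -0.45 (SE 0.12, limma adjusted p = 0.00397), and its second probe set gave -0.53 (SE 0.26, limma adjusted p = 0.109). Ier2 ran from 10.36 through 10.53 to 10.77 against 10.39 through 10.85 to 11.18, a difference of -0.27 (SE 0.08, limma adjusted p = 0.00662). The ranges of both genes overlapped between the sets.

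Dusp1 was 10.62 in arthritic 1, between 10.95 and 11.01 in arthritic 6, 7 and 9, and between 11.60 and 12.19 in arthritic 2, 3, 4, 5 and 8, so the 9 mice were split. In the other 27 it ran from 10.33 through 10.97 to 11.92. The difference was 0.44 (SE 0.15, limma adjusted p = 0.0197). It did not pass without arthritic 4 (0.39, limma adjusted p = 0.0536) or arthritic 5 (0.34, limma adjusted p = 0.077), nor by the rank test (adjusted p = 0.0875). Fos differed by 0.40 (SE 0.19, limma adjusted p = 0.111), and of the fits that left out 1 mouse it passed only without non-arthritic 2 (0.45, limma adjusted p = 0.0493). Jun, at -0.23, Atf3, at 0.24, Nr4a1, at -0.07, and Junb, at -0.02, did not pass.

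All 9 of these arrays lie in batch A, so the batch has to be read beside the result. Against the 4 non-arthritic arrays of batch A, 0 of 9 members passed, where limma called 0 of 27022 probe sets in all (0%). At an unadjusted p under 0.05, 4 of 9 members passed, where 3129 of 27022 probe sets did. The Egr1 difference there was -0.42 (SE 0.19, limma adjusted p = 0.419), Jun -0.62 (SE 0.18), Egr2 -0.54 (SE 0.19), Nr4a1 -0.31 (SE 0.11) and Dusp1 0.18 (SE 0.23). Fos turned to -0.28 (SE 0.25).

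Compared with arthritic 10 to 18 alone, where batch and mouse number cannot be told apart, 5 of 9 members passed and 29.6% of tested probe sets did. Egr1 was lower by -1.19 (SE 0.14, limma adjusted p = 7.49e-06), with 9.25 to 10.44 in one set and 10.38 to 11.24 in the other. Ier2 differed by -0.39 (SE 0.09), Egr2 by -0.49 (SE 0.16), Fos by 0.56 (SE 0.19, limma adjusted p = 0.0347) and Dusp1 by 0.62 (SE 0.21, limma adjusted p = 0.0314). The Fos call was lost, with adjusted p of 0.0519 to 0.072, without any 1 of arthritic 4, 5, 8, 9, 12, 16, 17 or 18. The Dusp1 call was lost, with adjusted p of 0.0522 to 0.0653, without any 1 of arthritic 2, 3, 4, 5, 8, 10, 15, 16 or 18. Those of Egr1, Egr2 and Ier2 passed in all 18 such fits.

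The same batch division was measured in mice without arthritis, 4 arrays of batch A against 14 of B and C. Egr1 was lower there too, while Fos, Jun and Nr4a1 were higher: 4 of 9 members, where 26.6% of tested probe sets were called, 4319 higher and 2875 lower (3104 and 3488 after quantile normalization). At an unadjusted p under 0.05, 5 of 9 passed, where 39.2% of probe sets did. Egr1 was 10.34, 10.06, 9.93 and 9.71 in non-arthritic 1, 2, 5 and 6 and ran from 10.28 through 10.69 to 10.97 in the 14 others, so only non-arthritic 1 overlapped. The difference was -0.68 (SE 0.13, limma adjusted p = 0.000662).

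Fos was 9.21, 9.76, 9.31 and 8.36 in the same 4 mice, with non-arthritic 6 apart from the other 3, and 7.40 through 8.30 to 9.22 in the 14. It was higher by 0.77 (SE 0.26, limma adjusted p = 0.0328). Nr4a1 was higher by 0.31 (SE 0.09, limma adjusted p = 0.0172) and Jun by 0.51 (SE 0.18, limma adjusted p = 0.0419), with 0.68 (SE 0.17, limma adjusted p = 0.00539) on the second Jun probe set. Egr2, at 0.14 (SE 0.17), Dusp1, at 0.22 (SE 0.12), Ier2, at -0.05 (SE 0.12), and Atf3, at 0.67 (SE 0.29, limma adjusted p = 0.0887), did not pass. The second Egr2 probe set pointed down instead, at -0.53 (SE 0.31). With 4 mice on one side, single arrays mattered. Non-arthritic 5 and 6 are the arrays with pancreas transcripts, and without them the limma adjusted p was 0.0484 for Egr1 (-0.49), 0.0315 for Fos (1.10), 0.0598 for Nr4a1 (0.37) and 0.0701 for Jun (0.60). Fos lost its call without non-arthritic 1, 2 or 5 (adjusted p of 0.079 to 0.167), Nr4a1 without non-arthritic 1 (0.074), and Jun without any 1 of non-arthritic 1, 2, 4, 5, 7, 8, 9, 10 or 15 (adjusted p of 0.0503 to 0.201). Atf3 passed without non-arthritic 13 (0.54, limma adjusted p = 0.0362).

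**Figure D4:**
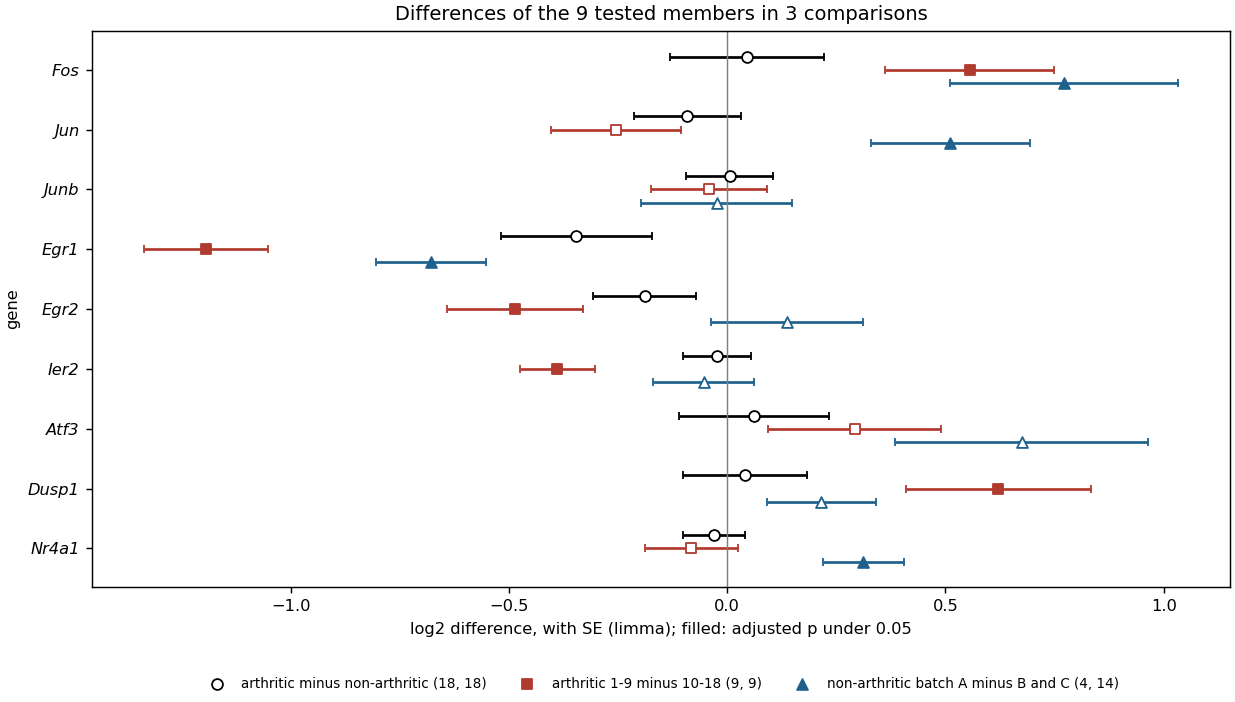
Log2 differences of the 9 tested members with SE from limma, for arthritic minus non-arthritic, arthritic 1 to 9 minus 10 to 18, and non-arthritic batch A minus B and C, with filled symbols where the adjusted p passed. Egr1 lies left of 0 in all 3, at -0.35, -1.19 and -0.68, while the brighter Jun probe set lies on opposite sides in the last 2, at -0.26 and 0.51. The second Jun probe set, not plotted, was above 0 in both, at 0.11 and 0.68.

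Whether the batch A difference itself differed between arthritic and non-arthritic mice was tested as an interaction. Limma called 0 of 9 members and 0 of 27022 probe sets (0%), with 4369 at an unadjusted p under 0.05 (16.2%). The differences between the groups were -0.77 (SE 0.24, limma adjusted p = 0.138) for Jun, -0.39 (SE 0.14, limma adjusted p = 0.174) for Nr4a1, -0.62 (SE 0.23, limma adjusted p = 0.183) for Egr2 and -0.52 (SE 0.20, limma adjusted p = 0.198) for Egr1. With group as a term, 13 arrays of batch A against 23 gave 5 of 9 members, where 43.1% of tested probe sets were called, 24.8% higher and 18.3% lower. At an unadjusted p under 0.05 it was also 5 of 9, where 50.3% passed. The 5 were Egr1 at -0.98 (SE 0.11, limma adjusted p = 2.13e-09) and Ier2 at -0.25 lower, and Fos at 0.64, Dusp1 at 0.45 and Atf3 at 0.45 higher.

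Over the 27022 tested probe sets the median size of Pearson r with the Gapdh ratio was 0.30, and the share passing was not computed. The ratio correlated with 5 of the 10 members over all mice (adjusted permutation p for Pearson r), namely Egr1, Fos, Dusp1, Ier2 and Egr2. It correlated with Egr1 at r = 0.72 (rho = 0.67, adjusted permutation p = 0.0001 for r and 0.0002 for rho, over 10 relations), with Fos at -0.57, with Dusp1 at -0.52, with Ier2 at 0.44 and with Egr2 at 0.42. After centring within batch and group 0 of the 10 passed, with adjusted permutation p from 0.148 to 0.746. Without the 2 mice farthest from the median ratio the Egr1 value was 0.71. Of all tested probe sets, 4.59% correlated with the ratio at least as strongly as Egr1 did over all mice. Within batches Egr1 gave 0.40 for A, 0.09 for B and -0.12 for C, and after centring 0.12 (adjusted permutation p = 0.746). The ratio varied less within batches A, B and C, with SDs of 0.059, 0.091 and 0.061 against 0.136 over all mice. A relation could therefore be missed there. With the ratio as a covariate, the Egr1 difference of arthritic 1 to 9 from the others was -0.72 (SE 0.16, limma adjusted p = 0.0358), the sole member call of that fit. Egr1 was likewise the sole member called with the covariate against arthritic 10 to 18 (-1.05, limma adjusted p = 0.0446) and in non-arthritic batch A (-0.71, limma adjusted p = 0.0301).

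**Figure D5:**
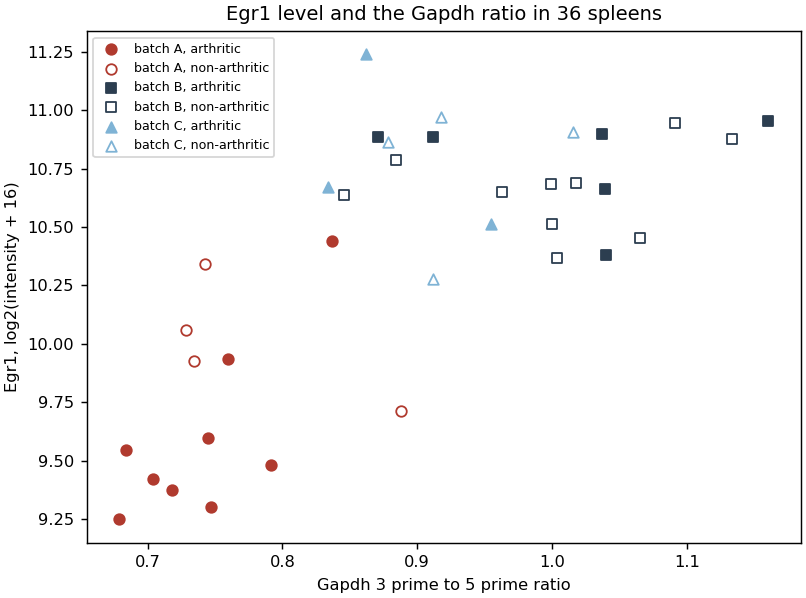
Egr1 level as log2(intensity + 16) against the Gapdh 3′ to 5′ ratio in 36 spleens, by spike-in batch and group. Batch A lies low on both axes, and within a batch the points show no steady slope (r of 0.40, 0.09 and -0.12 in A, B and C).

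Cell type markers also moved. In arthritic 1 to 9 against the others, 4 of 5 red pulp macrophage markers were higher, among them Spic by 0.82 (SE 0.15), 2 of 4 T cell markers were lower, among them Cd3e by -0.80 (SE 0.14), and 5 of 6 stromal markers were lower, among them Dcn by -1.37 (SE 0.24), where 16% of all probe sets were higher and 14.8% lower. In non-arthritic batch A, where Egr1 was lower and Fos, Jun and Nr4a1 higher, all 4 platelet markers were lower, among them Pf4 by -0.87 (SE 0.26), 3 of 5 red pulp macrophage markers were higher, and 2 of 4 T cell and 3 of 6 stromal markers were lower. All 3 pancreas markers were higher there, and the shares of all probe sets were 16% higher and 10.6% lower. Platelet markers summed to intensities of 13800 to 40100 in these 4 mice and 18950 to 55780 in the 14 others. T cell markers summed to intensities of 3187 to 6177 in arthritic 1 to 9, 5138 to 9195 in arthritic 10 to 18, 4000 to 6392 in non-arthritic batch A and 4242 to 7867 in the rest. Red pulp macrophage markers summed to 24550 to 46050, 17930 to 30940, 32160 to 44500 and 24760 to 33880 in the same order. Their part in the Egr1, Fos and Dusp1 differences was not tested. In whole spleen RNA, fewer cells of a type and less RNA per cell cannot be told apart.

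For the gene lists that follow, the shares of all tested probe sets called were 16% higher and 14.8% lower in arthritic 1 to 9, and 16% higher and 10.6% lower in non-arthritic batch A. Of 41 tested further immediate early genes, 3 were higher and 12 lower in arthritic 1 to 9, with a median difference of -0.12 against 0.02 over all probe sets. Jund, the AP-1 member that resting cells already express, was lower by -0.54 (SE 0.07, limma adjusted p = 3.98e-06). So were Egr3, a relative of Egr2, by -0.68 (SE 0.16), the zinc finger factor Klf6 by -0.48 (SE 0.08) and the survival factor Mcl1 by -0.25 (SE 0.06), while Rgs1, which damps chemokine receptor signalling in lymphocytes, was higher by 0.67 (SE 0.14). In non-arthritic batch A, 2 of the 41 were higher and 6 lower, with Rgs1 at 0.76 (SE 0.17) and Ppp1r15a, a stress-induced phosphatase subunit, at -0.76 (SE 0.17).

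Of 17 upstream regulators, 9 were lower and 1 higher in arthritic 1 to 9, beside 14.8% lower and 16% higher over all probe sets. Mrtfa, an actin-sensitive partner of Srf, was lower by -0.77 (SE 0.09, limma adjusted p = 8.75e-07), Creb1 by -0.55 (SE 0.10), Srf itself by -0.41 (SE 0.09), the Srf partner Elk4 by -0.29 (SE 0.06) and the kinase Rps6ka5 by -0.49 (SE 0.08). In non-arthritic batch A, 4 were lower and 1 higher, with Creb1 at -0.59 (SE 0.12), Mrtfa at -0.43 (SE 0.08) and the stress kinase Mapk14 at 0.37 (SE 0.09). Among 10 AP-1 partners, 2 were higher and 2 lower in arthritic 1 to 9, with Maf, a factor of macrophages and T cells, at 0.48 (SE 0.12) and Atf2 at -0.28 (SE 0.08).

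Other rapid programmes were listed beside these. Of 10 glucocorticoid response genes, 2 were higher and 0 lower in arthritic 1 to 9, a count near the 16% of all probe sets that were higher. They were Ddit4, by 0.60 (SE 0.18), and Fkbp5, by 0.39 (SE 0.12). The same 2 were higher in non-arthritic batch A, by 0.58 (SE 0.18) and 0.36 (SE 0.10). Of 11 heat shock genes, 4 were lower in arthritic 1 to 9, among them Hspa1b at -1.25 (SE 0.47), and 4 were higher in non-arthritic batch A, among them Hspa1b at 1.75 (SE 0.48). Of 12 clock genes, 1 was lower in the former, Bhlhe40 by -0.27 (SE 0.07), and 2 higher in the latter, Per3 by 0.66 (SE 0.17) and Per2 by 0.75 (SE 0.26). Of 9 cold and hypoxia genes, 2 were lower in the former, the glucose transporter Slc2a1 by -0.66 (SE 0.12) and the glycolytic enzyme Pgk1 by -0.47 (SE 0.09), and in the latter 2 were lower and 1 higher. In arthritic against non-arthritic mice, 0 genes of these lists passed.

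The genes whose pattern was most like the mean of the 10 members over 36 mice were Zbtb43 (r = 0.63), 2900052N01Rik (0.62), Zfp318 (0.62), Fgd3 (0.62), Zfp281 (0.61), Cdip1 (0.60), Sike1 (0.60), Dnajb1 (0.60), Phlpp1 (0.59) and Arid1a (0.59). After centring within batch and group they were Zbtb43 (0.72), Map4k4 (0.72), Fgd3 (0.68), Rnf2 (0.68) and Smg1 (0.68). The mean describes some members poorly: it correlated with Jun at 0.67 and Nr4a1 at 0.64 but with Egr1 at 0.05 and Dusp1 at 0.12. Likeness to single members was therefore added after their values had been seen, as a description. Egr1 was most like Phc2 (0.92) and Gimap5 (0.92) and most opposed to Map2k3 (-0.90). Fos was most like Il1b (0.75), the gene of interleukin 1 beta, and Dusp1 was most like Pdhx (0.74). After centring within batch and group, the closest genes were others: Dync1h1 for Egr1 (0.79), Ccn1 for Fos (0.68, with Il1b at 0.56) and the chemokine receptor Cxcr4 for Dusp1 (0.70, against 0.48 before centring).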

How the data were processed

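Per the labels, each array holds biotin-labelled Trizol RNA of a single spleen on an Affymetrix mouse array. The deposited values are probe set intensity on a linear scale. The authors made them with MAS5, per the submitters' processing notes, whose version is not given there. Each array had a trimmed mean of 500.0 over the values left after 2% was taken from each end. Values were used as log2(intensity + 16) with no further normalization, and the 64 control probe sets were left out. Probe sets whose mean lay under the 40th percentile (6.49) were not tested, which left 27022 of 45037. The platform annotation named 1 gene for 34945 of these 45037 probe sets, several for 932 and none for 9160, and 34741 matched RefSeq by gene identifier. Of the listed genes, 17 had no probe set. Sequences are from RefSeq (GRCm38.p6).

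Comparisons used limma 3.58.1 in R 4.3.3 (lmFit, eBayes with trend, two-sided, Benjamini-Hochberg over all tested probe sets, threshold 0.05). Groups and numbers came from the sample titles. Spike-in batches are 3 Ward clusters of 18 hybridisation control probe sets, a number set with the expression data known, and no label names a batch. Correlations used Python 3.11.15, numpy 2.4.6, pandas 2.3.3 and scipy 1.17.1, and plots matplotlib 3.10.9. The fitting and correlation code was tested on simulated data. The members and lists were chosen with earlier results of these data known. Named genes were all members, up to 5 genes of each list with the smallest unadjusted p, and the 10 (5 after centring) most like the mean of the members. Other settings were other pseudocounts (1 and 64), no filter, quantile normalization, no trend, the Gapdh ratio as a covariate, the batch as a block or alone, a rank test, arrays left out, and a replicate block. The number of arrays limits the precision. The number of mice in the design text is not that of the labelled arrays, and the labels were followed.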

Additional observations from a re-analysis of the deposited data

Results flagged for a closer look

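Over 30 gene and set combinations, in the arthritic sets of 9 mice and the 4 non-arthritic mice of batch A, 3 values lay far from the rest of their set by Dixon's test, where chance gives about 1 in 20. All 3 were in the sets of 9. Egr2 in arthritic 1 was 8.04, against 6.97 to 7.38 in arthritic 2 to 9. Arthritic 1 also had the highest Egr1 (10.44) and the lowest Dusp1 (10.62) of those 9 spleens, and without it the Egr1 difference from the other 27 mice was -1.13 in place of -1.03. Fos in arthritic 11 was 9.32, against 7.74 to 8.52 in the other arthritic mice from 10 to 18. Dusp1 in the same spleen was 11.92, against 10.32 to 11 in its set mates. Arthritic 11 had the highest Jun (10.18) and Nr4a1 (10.37) of that set too. Without it, the differences of arthritic 1 to 9 from that set were 0.68 for Fos and 0.76 for Dusp1, in place of 0.56 and 0.62.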

How the results depend on the processing

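With arthritic against non-arthritic mice, 0 members were called under every alternative run, leaving out each mouse in turn included. Over all probe sets 13 were called there. That count was 0 without a filter, without a trend or with the batch as a block, 1 after quantile normalization, 2 with the Gapdh covariate, 153 higher and 83 lower without the 3 arrays with pancreas transcripts, and 346 higher and 392 lower in batch B alone. Leaving out single mice moved it between 0 and 285 higher and between 0 and 104 lower, with the most without non-arthritic 2 (285 higher, 104 lower) and non-arthritic 5 (178 higher, 72 lower). For arthritic 1 to 9 against the others, 4 members were called, 1 with the Gapdh covariate (50 probe sets higher and 108 lower, of 8322 without it), 0 with the batch as a block (1 probe set) and 0 in batch A alone. Against arthritic 10 to 18, 5 were called, 1 with the Gapdh covariate (119 probe sets higher, 170 lower), 3 without the pancreas arrays, and 3 to 5 when single mice were left out. In non-arthritic batch A, 4 were called, 1 with the Gapdh covariate (992 higher, 908 lower), 2 without the pancreas arrays (2225 higher, 1637 lower, with 2 mice on one side), 2 by the rank test, and 1 to 5 when single mice were left out. Of the correlations, 9 were called, 3 after centring, 1 in batch A, 1 in batch B, 0 in batch C (7 mice) and 1 in non-arthritic mice alone. The subsets hold fewer mice. For the other settings the cause was not tested. The limit on the actin ratio left out 0 arrays.

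Signs turned as follows. In arthritic against non-arthritic mice, Fos was -0.15 with the Gapdh covariate, -0.13 with the batch block, -0.28 in batch A, -0.30 in B and -0.023 to 0.12 without single mice. Jun was 0.079 in B and 0.34 in C. Junb was -0.00023 after quantile normalization, -0.0080 without the pancreas arrays and -0.045 to 0.036 without single mice. Egr1 was 0.12 in B and 0.052 in C, and Egr2 0.15 in B. Ier2 was 0.040 with the covariate, 0.047 with the block, 0.13 in B and 0.23 in C. Atf3 was -0.033 with the covariate, -0.068 with the block, -0.32 in A, -0.31 in C and -0.053 to 0.13 without single mice. Dusp1 was -0.10 with the covariate, -0.093 with the block, -0.43 in B and -0.024 to 0.086 without single mice. Nr4a1 was 0.099 in B and 0.035 in C. For arthritic 1 to 9 against the others, Fos was -0.13 with the covariate and -0.28 with the block or in batch A. Junb was 0.014 with the covariate, 0.0043 with the block or in A, and -0.070 to 0.021 without single mice. Atf3 was -0.32 with the block or in A. Against arthritic 10 to 18, Junb ran from -0.097 to 0.065 without single mice. In non-arthritic batch A, Junb was 0.13 with the covariate, 0.076 without the pancreas arrays and -0.18 to 0.18 without single mice. Egr2 was -0.12 after quantile normalization. Ier2 was 0.0071 after it, 0.092 with the covariate and -0.18 to 0.061 without single mice. Egr1 with Egr2 correlated at -0.042 in non-arthritic mice. The cause was not tested.

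Same-numbered arthritic and non-arthritic mice deviated together in 11 of 18 pairs (correlation over 0.1, range -0.23 to 0.47), and a mouse's own number gave the highest correlation in 2. The rate for differently numbered mice was not counted, and batch was not held fixed. Numbers 1, 2, 5 and 6, with both mice in batch A, gave 0.43, 0.47, 0.23 and 0.19. Numbers 3, 4, 7, 8 and 9, with only the arthritic mouse in batch A, gave -0.23, -0.12, 0.01, -0.10 and -0.01. Numbers 10 to 18, with neither mouse in batch A, gave 0.01 to 0.29. This check does not settle whether the numbers pair the mice, and the main comparisons used no pairing. With the number as a replicate block, 0 members were called, Egr1 was at -0.35 (SE 0.14, limma adjusted p = 0.179), and 271 probe sets were higher and 98 lower in place of 13 and 0.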
